A study of Mus musculus with 19 samples.

Results

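The 4 endometrium libraries whose count columns are named SVX_VAS1 to SVX_VAS4 were compared with the 3 libraries of estrous females named CONT1, CONT2 and CONT4, so that 7 of the 19 libraries of the series entered the comparison. Libraries were taken by column prefix, a rule that uses no measured value. The series profiled endometrial RNA from C57Bl/6 females in 5 groups, of which 1 is estrus and 4 are mated groups. CONT females were virgin and untreated and were collected late in the evening of the day of proestrus, around ovulation. SVX_VAS females had been mated with Balb/c males and were collected at midday on day 3.5 pc. The sample titles and the column prefixes name different surgeries of the males for this set, therefore it is called SVX_VAS after its columns and no surgery is assigned to it. The other mated groups, INT, SVX and VAS, are likewise named by their prefixes. Endometrium was scraped from the myometrium in every group, and the libraries were made from pooled samples whose number of animals is not given in the sources used here. The p-values therefore measure the spread between pools, which may in part be technical. Mating, the day and the hour of collection changed together between CONT and SVX_VAS and cannot be told apart.

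Around ovulation the uterus is under estrogen, which drives growth of the luminal epithelium and secretion of proteins such as lactoferrin and complement C3. After mating, the corpora lutea secrete progesterone, and the endometrium then becomes able to receive an embryo. In that phase the epithelium makes Indian hedgehog, whose receptor Patched1 and transcription factors of the Gli family act in the stroma beneath, and the stroma in turn restrains the epithelial response to estrogen.

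Total counts on genes were 15487788 to 31781270 in CONT and 13789824 to 20525568 in SVX_VAS, and 17222 of 49089 genes (35.1%) had a level of 3 CPM (counts on a gene divided by library size, with TMM scaling) or more in 3 or more of the 19 libraries and were tested. No pair of libraries of the same group was a duplicate deposit. SVX_VAS2 stood apart from the other SVX_VAS libraries, with levels of many estrogen-responsive genes near those of CONT, and SVX_VAS4 lay between it and the rest. In the fit that all groups share, VAS2 and VAS3 also stood apart, with 1.11% and 1.07% of their counts in their 10 largest genes against 3.74% to 5.81% elsewhere. Results that rest on SVX_VAS2 are given with and without it. Markers of epithelium, stroma and endothelium were detected in all 7 libraries, and the summed level of 4 Y chromosome genes was 0 CPM in each of them.

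Principal components of the 7 libraries separated the groups along PC1, which held 85.8% of the variance. PC1 scores were -105.6, -79.7 and -85.3 in CONT1, CONT2 and CONT4, and 90.7, 35.1, 92.3 and 52.5 in SVX_VAS1, SVX_VAS2, SVX_VAS3 and SVX_VAS4. The groups did not overlap, and SVX_VAS2 and SVX_VAS4 lay nearest to estrus. Mean scores of CONT and SVX_VAS were -90.2 ± 13.6 (SD, n = 3) and 67.7 ± 28.5 (SD, n = 4), a difference of 157.9, for which an exact two-sided permutation test gave p = 0.0571, the lowest value possible with 3 and 4 libraries. PC2 held 7.23% of the variance and was set by SVX_VAS2, whose score was -54.1 where the other SVX_VAS libraries had 9.87 to 15.9. CONT and SVX_VAS scores on PC2 were intermingled, and the exact two-sided permutation test gave p = 0.971.

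**Figure D1:**
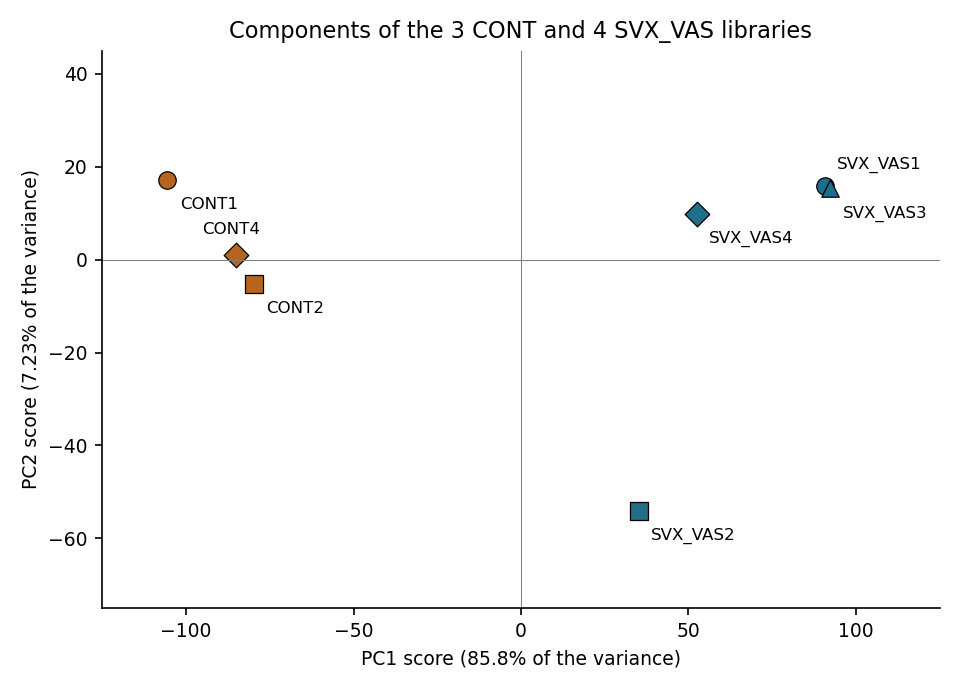
Scores of the 3 CONT and 4 SVX_VAS libraries on PC1 (85.8% of the variance) and PC2 (7.23%), from log2 CPM of 17222 genes; each point is 1 library and its shape gives the library number. CONT lies at -105.6 to -79.7 on PC1 and SVX_VAS at 35.1 to 92.3, with SVX_VAS2 alone at -54.1 on PC2.

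In SVX_VAS, 3814 genes were higher (22.1% of genes tested) and 2822 genes were lower (16.4%) than in CONT at a false discovery rate (FDR) of 0.05 or less and a fold change of at least 1.5, together 6636 genes (38.5%). Called and not called refer below to this edgeR fit of all 19 libraries unless another fit is named, and genes near its thresholds that other fits called are given with those fits, of which the fit without VAS2 and VAS3 was chosen after seeing the data. The median log2 fold change (logFC) was 1.35 for the higher genes, -1.08 for the lower genes and -0.02 for all genes tested. A rise of 4-fold or more was found for 925 genes and a fall of that size for 461. No CONT library reached into the range of SVX_VAS in 6535 called genes (98.5%), against 67.5% of all genes tested. Of the called genes, 1601 (24.1%) share exon positions with a gene transcribed from the other strand, and the reads of both can be counted for either gene because the strand setting of the counting is not given in the sources used here. Among the genes named below without a remark, this holds also for Hand2, Padi1, Ramp3, Ccnd1, Prap1, Nr3c2, Stat3, Nrg1, Mcm7, Gapdh, Cldn3, Prox1 and Col4a1. In bulk tissue, as here, fewer cells of a type and less RNA per cell cannot be told apart.

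Against the other mated groups no gene was called by edgeR (0 of 17222, 0%, against each of INT, SVX and VAS). The numbers of genes with an unadjusted p under 0.05 were 339 against INT, 240 against SVX and 2520 against VAS. DESeq2 called 2, 0 and 27 genes in the same comparisons, and limma-voom called 0, 0 and 1804. The 2 genes that DESeq2 called against INT are named although they were chosen after their values were seen. Sphkap, an anchoring protein for protein kinase A, was at 10.2, 9.77, 6.74 and 4.24 CPM in INT and 2.06, 2.59, 3.14 and 2.34 CPM in SVX_VAS (DESeq2 logFC -1.61, FDR 0.0049). Nr4a3, an orphan nuclear receptor encoded by an immediate early gene, was at 5.19, 2.38, 4.76 and 6.05 CPM in INT and 29.7, 6.56, 20.4 and 27.8 CPM in SVX_VAS (DESeq2 logFC 2.21, FDR 0.0138). INT and SVX_VAS were apart for both genes, and SVX_VAS2 held the lowest Nr4a3 level of its group.

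Levels are given below as CPM with TMM factors, in the order CONT1, CONT2, CONT4 and then SVX_VAS1, SVX_VAS2, SVX_VAS3, SVX_VAS4. They depend on transcript length and are compared between libraries, not between genes. Each logFC is SVX_VAS minus CONT from the quasi-likelihood fit and is given with its standard error (SE). The members of each gene list are counted as higher, lower or not called, and the median logFC of a list stands beside the median of all genes tested, -0.02. Counts of called members are to be read beside the shares of all genes tested, 22.1% called higher and 16.4% called lower. A list near these shares says no more about its members than about genes at large.

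The hedgehog axis rose as a group, with 15 of 16 tested members higher, none lower and a median logFC of 1.36. The exception was Disp1, which releases the ligand from the cell that makes it, with a logFC of 0.13. Ihh, the ligand, lies on the reverse strand of chromosome 1 (GRCm38, chr1:74945315-74951672) and was at 0.472, 1.03 and 3.39 CPM in CONT and 41.0, 39.6, 52.9 and 40.6 CPM in SVX_VAS. The 4 SVX_VAS libraries lay close together, SVX_VAS2 included, and far above the highest CONT library. Ihh rose 28.0-fold (logFC 4.81, SE 0.51, FDR 3.54e-06). The other ligands, Shh and Dhh, were below the minimum level for testing.

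Among the receptors, Ptch1 was at 66.4, 78.5 and 75.6 CPM in CONT and 478, 389, 517 and 383 CPM in SVX_VAS, a 6.01-fold rise (logFC 2.59, SE 0.31, FDR 7.82e-06). The groups did not overlap for Ptch1. Gli1, a transcription factor that is itself a target of the pathway, was at 3.19, 5.21 and 7.23 CPM in CONT and 173, 149, 193 and 157 CPM in SVX_VAS, with exons that overlap Arhgap9. It rose 32.4-fold (logFC 5.02, SE 0.35, FDR 4.22e-07), and every SVX_VAS library lay far above every CONT library. Hhip, a membrane protein that binds and sequesters the ligand, was at 0.118, 0.25 and 0.603 CPM and 16.5, 34.9, 29.3 and 16.7 CPM (logFC 6.30, SE 0.66, FDR 3.04e-06, overlapping Gm27820). Here SVX_VAS2 was the highest of its group.

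The further hedgehog members changed less. Gli2 and Gli3, the other factors of the family, had logFC of 1.44 and 1.98. Kif7, which acts in the primary cilium, had a logFC of 1.86, and the exons of Gli3 and Kif7 overlap genes on the other strand. The inhibitor Sufu (0.94), the co-receptors Boc (1.10) and Gas1 (1.06) and the acyltransferase Hhat (0.93) also rose. Smo, the signal transducer, and the co-receptor Cdon were both at the fold cutoff, with a logFC of 0.61 each, and neither was called once CONT1 or SVX_VAS3 was left out or a laxer or no filter on low counts was used, which brought the fold below 1.5. Nr2f2, an orphan nuclear receptor of the stroma downstream of Ihh, was at 109, 140 and 132 CPM in CONT and 310, 278, 357 and 294 CPM in SVX_VAS (logFC 1.29, SE 0.21, FDR 0.000125). Its exons overlap a gene on the other strand. In the other mated groups the median logFC of the list against the same CONT libraries was 1.19 for INT, 1.36 for SVX and 1.36 for VAS.

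Of the 22 genes listed as progesterone targets, 15 rose and 3 fell, with a median logFC of 1.95. Lrp2, an endocytic receptor of the low-density lipoprotein family, held the most counts of all called genes in SVX_VAS. It was at 42.9, 64.6 and 53.8 CPM in CONT and 2341, 1279, 2177 and 1692 CPM in SVX_VAS, a 34.8-fold rise (logFC 5.12, SE 0.53, FDR 2.92e-06), with SVX_VAS2 the lowest and SVX_VAS4 the next. Acod1, which makes itaconate, was at 0.177, 0.214 and 0.527 CPM and 124, 57.5, 105 and 71.4 CPM and showed the same order. It rose 310-fold (logFC 8.28, SE 0.87, FDR 3.22e-06), a call that limma-voom did not make (logFC 8.26, FDR 0.0824).

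The epithelial growth factor Areg was at 0.236, 0.107 and 0.151 CPM in CONT and 6.09, 6.17, 7.34 and 6.14 CPM in SVX_VAS (logFC 5.27, SE 0.68, FDR 1.54e-05). Calca, which encodes calcitonin, was at 0, 0.107 and 0.0753 CPM and 6.14, 8.98, 9.43 and 7.02 CPM (logFC 6.74, SE 0.92, FDR 2.36e-05). In both, the 4 SVX_VAS libraries lay close together and apart from CONT. The homeobox genes Hoxa10 and Hoxa11, which pattern the uterus and are needed for decidualization, had logFC of 2.73 and 2.80, the latter with exons that overlap Hoxa11os. Hoxa10 was at 23.1, 42.5 and 32.4 CPM in CONT and 229, 178, 258 and 202 CPM in SVX_VAS. Stromal Hand2 (logFC 2.06), Fst, which encodes the activin antagonist follistatin (4.04), Il13ra2 (2.31), Zbtb16 (1.83), Tcf23 (1.75) and Alox15 (0.88) rose as well. Not called were Gata2 (logFC 0.26, FDR 0.158), Fkbp5 (0.42, FDR 0.0548), Bmp2 (-0.44, FDR 0.395) and Cyp26a1 (2.71, SE 1.62, FDR 0.171, or 0.0061 with the 7 libraries alone), for which SVX_VAS2 was at 1.76 CPM and SVX_VAS1 at 7.10 CPM.

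The 3 listed progesterone targets that fell were Cbr2, Wnt4 and Sgk1. Cbr2, a carbonyl reductase, was at 1095, 729 and 1091 CPM in CONT and 33.1, 219, 34.3 and 124 CPM in SVX_VAS (logFC -3.25, SE 0.93, FDR 0.00764), with the highest level of the 4 in SVX_VAS2. Wnt4, a signal needed for stromal differentiation, was at 28.0, 40.5 and 31.3 CPM and 4.89, 20.9, 5.44 and 9.06 CPM (logFC -1.72, SE 0.55, FDR 0.0143). Sgk1, a kinase that regulates sodium uptake by the epithelium, was at 78.7, 66.4 and 75.03 CPM and 45.9, 46.2, 46.1 and 48.3 CPM, so that the 4 SVX_VAS libraries were nearly equal and all below CONT (logFC -0.65, SE 0.12, FDR 0.000294). With upper quartile scaling its logFC of -0.51 was below the fold cutoff.

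Promoters of list members, from 250 bases before to 50 after the gene start in RefSeq (GRCm38.p6), were searched on both strands for consensus elements. The progesterone response element, given as GNACA, any 3 bases and TGTNC, was found in 1 of 17 progesterone targets with a promoter in the table and in 155 of 32544 promoters (0.476%). The estrogen response element, given as GGTCA, any 3 bases and TGACC, was found in 0 of 20 estrogen targets and in 23 of all promoters (0.0707%). The Gli site GACCACCCA was found in 0 of 14 hedgehog members and in 80 of all promoters (0.246%). The match in the progesterone targets was in Sgk1, whose promoter is printed because it is the one that holds the element, with the element in capitals. It lies on the forward strand at chr10:21993640-21993939, within the longer gene model used for counting, and the element starts at position -188 from the gene start. A match is a description of letters and not of binding.
Sgk1 promoter: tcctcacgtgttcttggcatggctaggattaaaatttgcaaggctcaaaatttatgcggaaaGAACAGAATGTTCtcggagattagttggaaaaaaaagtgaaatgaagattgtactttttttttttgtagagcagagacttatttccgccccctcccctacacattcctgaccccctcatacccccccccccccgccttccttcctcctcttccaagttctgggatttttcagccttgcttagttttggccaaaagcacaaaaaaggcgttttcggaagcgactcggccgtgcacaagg

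**Figure D2:**
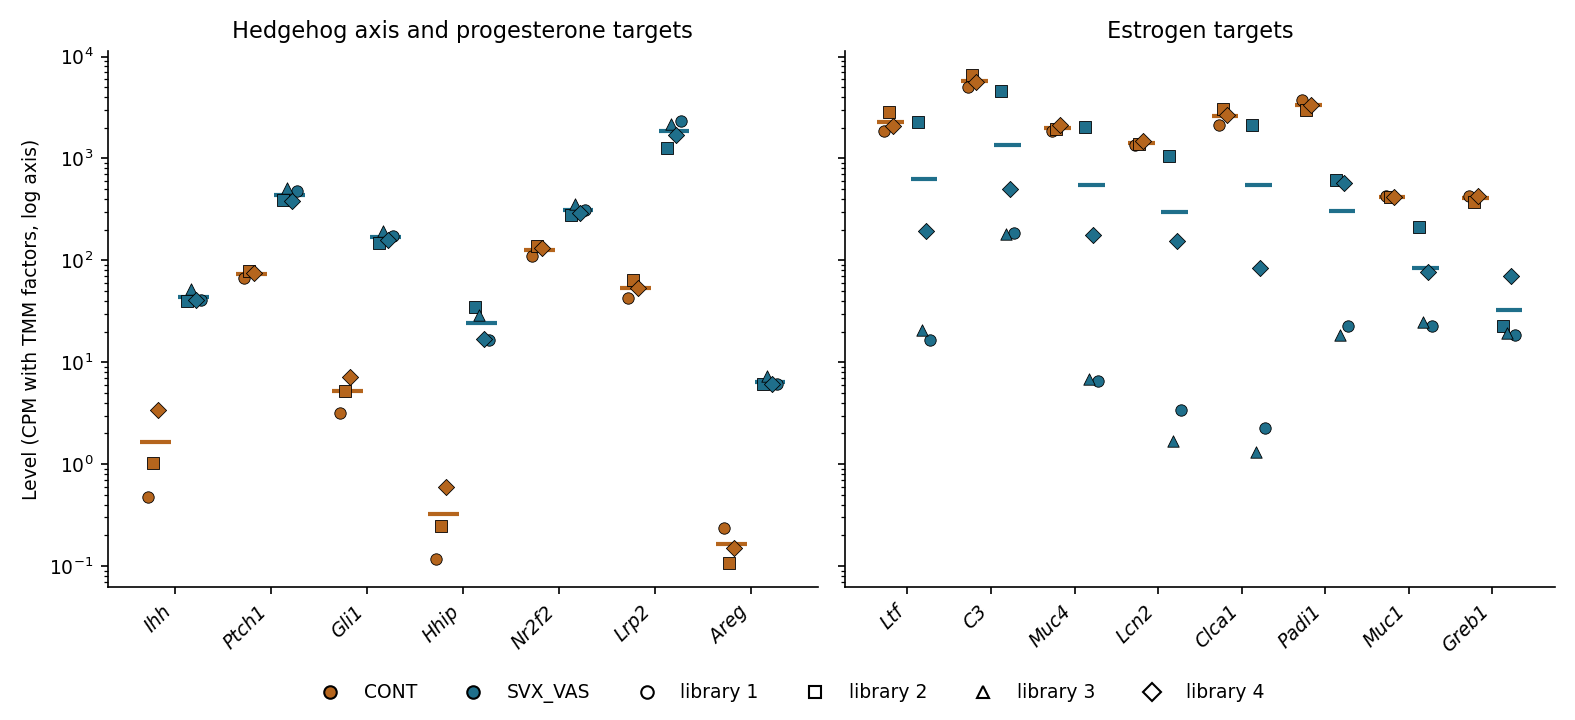
Levels of hedgehog and progesterone genes (left) and of estrogen targets (right) in CPM on a log axis; each point is 1 library, its shape gives the library number, and bars are group means (n = 3 CONT, n = 4 SVX_VAS). Ihh lies at 39.6 to 52.9 CPM in all 4 SVX_VAS libraries, whereas Ltf lies at 2286 CPM in SVX_VAS2 and at 16.6 to 193 CPM in the others.

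The estrogen targets had the lowest median position of SVX_VAS2 among the pathway lists, 0.0768 on a scale where 0 is the mean of CONT and 1 that of the other 3 SVX_VAS libraries. Of 19 tested members, 1 rose, 5 fell and 13 were not called, with a median logFC of -1.84, and without SVX_VAS2 10 fell. The summed level of the list was 19220, 21930 and 20680 CPM in CONT and 2041, 15220, 2031 and 3893 CPM in SVX_VAS. Thus SVX_VAS2 was near estrus, SVX_VAS4 was intermediate, and SVX_VAS1 and SVX_VAS3 were about equal. Epithelial markers moved with the list, with 10 of 12 tested lower and summed levels of 7058, 5335 and 6391 CPM in CONT and 1257, 2795, 1286 and 1911 CPM in SVX_VAS, SVX_VAS2 again the highest of the 4, and their part in these values was not tested. Against the same CONT libraries the median logFC of the list was -1.66 for INT, -3.33 for SVX and -1.98 for VAS.

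Ltf, which encodes lactoferrin, was at 1863, 2830 and 2075 CPM in CONT and 16.6, 2286, 20.9 and 193 CPM in SVX_VAS, so that SVX_VAS2 lay within the range of CONT. Its logFC was -1.84 (SE 1.60, FDR 0.356) with all libraries and -4.88 (FDR 0.0275) without SVX_VAS2. C3, the central complement component, was at 4981, 6569 and 5656 CPM and 186, 4593, 182 and 506 CPM, with SVX_VAS2 just below CONT. Its logFC was -2.07 (FDR 0.143) and, without SVX_VAS2, -4.30 (FDR 0.00464). The membrane mucin Muc4, whose exons overlap Muc20, was at 1877, 1931 and 2146 CPM and 6.48, 2025, 6.88 and 178 CPM, again with SVX_VAS2 inside the range of CONT. Without that library its logFC went from -1.84 (FDR 0.390) to -4.96 (FDR 0.0388). The calcium-activated chloride channel regulator Clca1 was at 2122, 3041 and 2664 CPM and 2.25, 2121, 1.31 and 84.6 CPM, with a logFC of -2.24 (FDR 0.382), or -6.48 (FDR 0.0344) without SVX_VAS2.

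The lipocalin Lcn2 was at 1362, 1398 and 1493 CPM in CONT and 3.41, 1046, 1.70 and 155 CPM in SVX_VAS. It was called neither with all libraries (logFC -2.23, FDR 0.330) nor without SVX_VAS2 (-4.73, FDR 0.0745). Padi1, a peptidylarginine deiminase, was at 3723, 2965 and 3324 CPM and 22.5, 618, 18.7 and 573 CPM, so that here SVX_VAS2 and SVX_VAS4 were alike (logFC -3.44, FDR 0.0656, or 0.0225 by DESeq2 and 0.0373 with the 7 libraries alone).

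A smaller set of estrogen targets was lower in SVX_VAS2 too. Greb1, a cofactor of the estrogen receptor and one of its most direct targets, was at 430, 372 and 430 CPM in CONT and 18.4, 22.6, 19.3 and 70.6 CPM in SVX_VAS. SVX_VAS2 was at the level of SVX_VAS1 and SVX_VAS3 here, and SVX_VAS4 was the highest of the 4. Greb1 fell 12.6-fold (logFC -3.65, SE 0.80, FDR 0.00116). Ramp3, a receptor modulator for adrenomedullin, was likewise highest in SVX_VAS4, at 14.3, 9.53, 14.7 and 72.6 CPM against 107, 135 and 104 CPM in CONT and was not called (logFC -2.06, FDR 0.0605), though it was without SVX_VAS4 (-3.16, FDR 0.00919), by DESeq2 (-2.04, FDR 0.0282), by limma-voom (FDR 0.0125), with the 7 libraries alone (FDR 0.0282) and without VAS2 and VAS3 (FDR 0.046). Klf4 (logFC -2.01) and the thioredoxin reductase Txnrd1 (-1.15) fell. Muc1, the mucin of the luminal surface, was at 427, 414 and 423 CPM and 22.8, 212, 24.96 and 76.4 CPM (logFC -2.33, FDR 0.0239). The call of Muc1 was lost without SVX_VAS1 (logFC -2.01, FDR 0.0624), SVX_VAS3 (-2.02, FDR 0.0644) or SVX_VAS4 (-2.28, FDR 0.0516). The fall of Ccnd1 (logFC -1.05, FDR 0.0211) was lost without SVX_VAS2 (-0.90, FDR 0.0585) or CONT1 (-0.995, FDR 0.0606).

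The 1 listed estrogen target that rose was Igf1, a growth factor made by the stroma, at 100, 155 and 119 CPM in CONT and 968, 863, 981 and 866 CPM in SVX_VAS. The 4 libraries were alike, and the rise was 7.36-fold (logFC 2.88, SE 0.32, FDR 5.05e-06).

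Each SVX_VAS library was also set against a contrast made from the other 3 and CONT, with its position scaled so that 0 is the mean of CONT and 1 the mean of the other 3 in log2 CPM. Of 3022 genes called lower without SVX_VAS2, 213 (7.05%) lay in or past the range of CONT in SVX_VAS2, and its median position was 0.695. For SVX_VAS4 these values were 45 of 2807 genes (1.6%) and 0.852. SVX_VAS1 and SVX_VAS3 had 3 of 2490 (0.12%) and 1 of 2415 (0.0414%), with median positions of 1.16 and 1.20. Among genes called higher without it, SVX_VAS2 had 43 of 3832 (1.12%) in or past the range of CONT and a median position of 0.88. The lower genes thus held more of the exceptions than the higher genes in SVX_VAS2, and a test of that difference was not run.

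**Figure D3:**
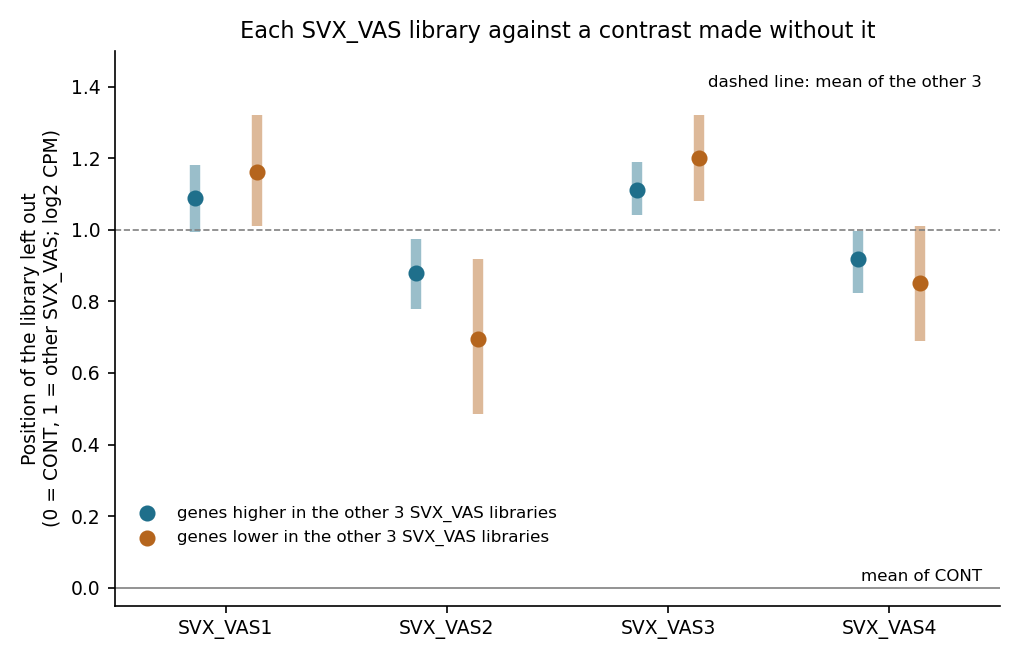
Position of each SVX_VAS library between CONT (0) and the mean of the other 3 SVX_VAS libraries (1), over the genes called without it; dots are medians over genes and bars span the middle 50% of genes. For lower genes the median is 0.695 in SVX_VAS2 and 0.852 in SVX_VAS4, against 1.16 and 1.20 in SVX_VAS1 and SVX_VAS3.

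The 10 genes with the largest SD among the SVX_VAS libraries were all high in SVX_VAS2 and low in SVX_VAS1 and SVX_VAS3, namely Clca1, Chil1, Prap1, Sprr2b, Lcn2, Sprr2a3, Muc4, Slc26a9, Sprr2d and Gabrp. In 6 of them SVX_VAS2 lay above all CONT libraries. Chil1, a secreted chitinase-like protein, was at 5.32, 24.97 and 11.3 CPM in CONT and 0.096, 176, 0.262 and 0.658 CPM in SVX_VAS. Its logFC was 1.67 (FDR 0.528) with all libraries and -5.42 (FDR 0.045) without SVX_VAS2. Slc26a9, a chloride transporter, was at 21.0, 30.03 and 25.3 CPM and 0.192, 122, 0.328 and 2.78 CPM, with a logFC of 0.30 (FDR 0.906) and of -4.59 (FDR 0.0461) without SVX_VAS2. Gabrp, a subunit of the GABA-A receptor, was at 163, 147 and 176 CPM and 0.72, 278, 0.917 and 10.8 CPM, with a logFC of -1.16 (FDR 0.561) and of -5.34 (FDR 0.0101) without SVX_VAS2, and limma-voom called it lower with all libraries (-4.62, FDR 0.0262). Prap1, a secreted acidic protein, went from a logFC of -0.87 (FDR 0.708) to -7.49 (FDR 0.00163), and Sprr2a3 from -2.80 (FDR 0.190) to -6.96 (FDR 0.0105), when SVX_VAS2 was left out, and limma-voom called both lower with all libraries (FDR 0.0248 and 0.0285). The Sprr2 genes, which encode small proline-rich proteins of the epithelial surface, are near-identical copies, and reads can be split between them.

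Receptors for the ovarian hormones changed little. Pgr, the progesterone receptor, was at 376, 393 and 470 CPM in CONT and 431, 329, 422 and 447 CPM in SVX_VAS, and the groups overlapped (logFC -0.02, SE 0.28, FDR 0.961). Esr1, the main estrogen receptor of the uterus, was at 965, 905 and 1064 CPM and 697, 797, 720 and 778 CPM, lower in all 4 libraries but not called (logFC -0.39, SE 0.25, FDR 0.210). Of 16 tested receptors and cofactors, 4 rose, near the 22.1% of all genes tested, and none fell, with a median logFC of 0.32. Members that rose included Gper1 (logFC 0.96), Nr3c2 (0.65) and Pgrmc2 (0.61). The call of Nr3c2 was lost without CONT1 (0.56, FDR 0.0606) or CONT4 (0.50, FDR 0.0667), and that of Pgrmc2 without SVX_VAS3 (0.57, below the fold cutoff) and with a laxer or no filter on low counts (0.56 to 0.58). Without CONT2, SVX_VAS2 or SVX_VAS4, 1 cofactor was called lower.

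Of 13 tested gland and secretory genes 7 rose, 1 fell and 5 were not called, with a median logFC of 2.31. Their summed level changed little, at 598.2, 602.3 and 621.7 CPM in CONT and 648, 803.6, 607.7 and 607.2 CPM in SVX_VAS. Foxa2, the transcription factor of the uterine glands, was at 2.95, 5.03 and 2.71 CPM in CONT and 13.5, 20.3, 20.8 and 17.0 CPM in SVX_VAS (logFC 2.31, SE 0.35, FDR 5.62e-05). The chemokine Cxcl15 was at 0.118, 0.143 and 1.13 CPM and 37.6, 52.0, 45.9 and 41.4 CPM, a 111-fold rise (logFC 6.79, SE 0.52, FDR 4.96e-07). With a library left out in turn, the logFC of Cxcl15 ranged from 6.22 to 8.30. The protease inhibitor Spink1 was at 0.472, 1.71 and 0.301 CPM and 52.7, 41.6, 36.4 and 51.2 CPM (logFC 5.601). In all 3 the groups were apart and SVX_VAS2 lay among its group. Ttr, which encodes transthyretin and overlaps Gm16090, had a logFC of 6.98, Wfdc3 had 3.38, Gstm2 had 2.39 and the sulfotransferase Sult1d1 had 1.71. The member that fell was Muc1, whose call was lost without SVX_VAS1, SVX_VAS3 or SVX_VAS4 as given above.

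Leukemia inhibitory factor, Lif, is the cytokine of the glands that is needed for implantation. Its transcript was at 54.5, 41.4 and 55.7 CPM in CONT and 21.2, 37.6, 12.2 and 18.6 CPM in SVX_VAS, below CONT in all 4 libraries but not called by edgeR (logFC -1.17, SE 0.59, FDR 0.104). Limma-voom (-1.24, FDR 0.0413) and the fit of the 7 libraries alone (-1.16, FDR 0.0183) called it lower. Its receptor Lifr was at 400, 349 and 426 CPM and 114, 133, 99.9 and 112 CPM and fell 3.41-fold (logFC -1.77, SE 0.21, FDR 6.49e-06). In the family, 2 of 13 tested members rose and 4 fell, with a median logFC of -0.40. The interleukin-11 receptor Il11ra1, which overlaps Ccl27a, rose (logFC 1.58), as did the kinase Jak1 (0.86, overlapping Raver2), whereas Il6ra (-0.99, overlapping Gm42809), Cebpb (-1.80, overlapping Tmem189) and Osmr fell. Osmr, the oncostatin M receptor, was at 134 CPM in SVX_VAS2 and 47.4 to 60.6 CPM in the others (logFC -1.12, FDR 0.0167), and its call was lost without SVX_VAS3 (-0.95, FDR 0.0531). Stat3, the factor that the Lif receptor activates, had a logFC of -0.40 (FDR 0.0219), below the fold cutoff.

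In the EGF family, 3 of 12 tested members rose, near the 22.1% of all genes tested, and 5 fell, with a median logFC of -0.84. Without any 1 of CONT1, CONT2, CONT4, SVX_VAS1 or SVX_VAS3, 2 rose and 4 fell. Areg rose as described, and the receptor Egfr rose 1.74-fold (logFC 0.80, SE 0.19, FDR 0.00198). Erbb3, another receptor of the family, was at 332, 281 and 332 CPM in CONT and 62.3, 194, 62.4 and 76.4 CPM in SVX_VAS (logFC -1.67, SE 0.36, FDR 0.000947). Erbb2, the receptor that pairs with it, had a logFC of -1.46 and overlaps Mien1. The ligands Btc (-1.86) and Tgfa (-0.80, overlapping Gm43917) also fell. Nrg1, a ligand of Erbb3, was at 4.70, 4.13, 3.93 and 29.2 CPM in SVX_VAS and 19.1 to 44.3 CPM in CONT, so that SVX_VAS4 alone lay in the range of CONT (logFC -1.52, FDR 0.224, or -2.81, FDR 0.0365 without SVX_VAS4).

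Of 37 tested Wnt pathway genes, 16 rose and 4 fell, with a median logFC of 0.38, and 2 fell without SVX_VAS1. Ndp, which encodes norrin, a ligand of Frizzled4, was at 0.177, 0.357 and 0.226 CPM in CONT and 37.3, 31.8, 38.8 and 26.8 CPM in SVX_VAS, a 122-fold rise (logFC 6.94, SE 0.51, FDR 4.88e-07). Lef1, a transcription factor of the pathway that overlaps Gm43352, was at 2.36, 5.71 and 3.84 CPM and 123, 65.2, 119 and 94.7 CPM (logFC 4.64, SE 0.45, FDR 1.91e-06), with SVX_VAS2 the lowest of the 4. Both were far from CONT in every library. Wnt11 rose as well (logFC 5.50, overlapping Gm8398), as did Wnt6 (3.73), the secreted inhibitor Sfrp2 (3.66, overlapping Gm26771), Dkk3 (2.33) and the receptors Fzd1 (1.17), Fzd2 (1.46), Fzd3 (0.77) and Fzd4 (0.99). Besides Wnt4, Wnt16 (-1.05) fell. Wnt7b, an epithelial ligand that overlaps a gene on the other strand, fell as well, from 42.6 to 55.9 CPM in CONT to 1.10, 7.77, 1.11 and 12.0 CPM in SVX_VAS (logFC -3.21, FDR 0.0216), a call that was lost without SVX_VAS1 (-2.86, FDR 0.0571) or SVX_VAS3 (-2.87, FDR 0.0579). Axin2, a common readout of the pathway, was not called (logFC 0.38, FDR 0.157, overlapping a gene on the other strand).

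Among BMP, activin and TGF-beta genes 15 of 35 tested members rose and 5 fell, with a median logFC of 0.16. Fst, the antagonist, was at 1.48, 5.49 and 3.54 CPM in CONT and 56.7, 66.0, 64.9 and 47.4 CPM in SVX_VAS (logFC 4.04, SE 0.44, FDR 4.34e-06). The BMP antagonist Nog was at 0.472, 1.43 and 0.678 CPM and 11.2, 6.00, 9.76 and 9.57 CPM (logFC 3.35, SE 0.40, FDR 8.02e-06). Neither overlapped between groups. The ligands Gdf10 (logFC 2.31) and Bmp7 (1.62) and the targets Id3 (1.93) and Id2 (1.09) rose. The ligands Bmp5 (-1.88, overlapping Gm26903) and Bmp3 (-1.12), the receptor Bmpr1a (-0.72, below the fold cutoff at -0.58 with upper quartile scaling, overlapping Gm17110) and the inhibitor Smad7 (-0.88) fell. Inhbb, a subunit of activin B, was at 130, 146 and 130 CPM and 2.45, 48.5, 2.88 and 100 CPM and was not called (logFC -1.82, SE 1.42, FDR 0.302).

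In the prostaglandin pathway, 6 of 19 tested members rose and 2 fell, with a median logFC of 0.39. Pla2g10, a secreted phospholipase, was at 0.354, 0.464 and 0.8286 CPM in CONT and 36.5, 35.6, 34.5 and 34.0 CPM in SVX_VAS, almost the same in the 4 libraries (65.5-fold, logFC 6.03, SE 0.58, FDR 1.85e-06). The receptors Ptger3 (logFC 3.59), Ptgfr (3.33, overlapping Gm43618) and Ptger2 (2.49) rose, and Ptges2, a prostaglandin E synthase, fell (-1.33). Ptgs2, the inducible cyclooxygenase, was at 9.21, 26.4 and 11.3 CPM in CONT and 13.1, 313, 7.34 and 7.67 CPM in SVX_VAS. It was high in SVX_VAS2 only, with a logFC of 2.44 (SE 1.36, FDR 0.145) and of -0.74 (FDR 0.566) without that library.

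Vessel growth genes rose in 19 of 29 tested members and fell in 1, with a median logFC of 0.98, and 2 fell without SVX_VAS2. Kdr, the main VEGF receptor of endothelial cells, was at 33.3, 47.6 and 36.8 CPM in CONT and 196, 130, 167 and 160 CPM in SVX_VAS (logFC 2.06, SE 0.17, FDR 7.68e-07). Tek, the angiopoietin receptor, was at 13.2, 20.1 and 15.7 CPM and 106, 78.5, 94.9 and 78.8 CPM (logFC 2.45, SE 0.25, FDR 2.51e-06). For both, every SVX_VAS library was above every CONT library and SVX_VAS2 was the lowest of its group. The largest rise was that of Ednrb, the endothelin B receptor (logFC 3.43), followed by the ligand Angpt1 (3.41, overlapping Gm17473), Apln (3.06) and Pgf (2.71). Dll4, the Notch ligand of sprouting tip cells, fell (-0.85, overlapping Gm14207). Vegfa was at 102 to 130 CPM in CONT and 131, 217, 130 and 130 CPM in SVX_VAS and was not called (logFC 0.45, FDR 0.0573), except with upper quartile scaling (0.59, FDR 0.00926).

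Of 47 matrix genes 24 rose and 5 fell, with a median logFC of 0.82, and 3 fell without SVX_VAS1 or SVX_VAS3. Gpc6, a glypican that binds growth factors, was at 2.19, 3.78 and 4.29 CPM in CONT and 124, 83.0, 117 and 85.9 CPM in SVX_VAS (logFC 4.90, SE 0.35, FDR 4.39e-07). Lamc3, a laminin chain that overlaps Gm13441, was at 6.56, 9.74 and 7.83 CPM and 138, 94.1, 143 and 110 CPM (logFC 3.91, SE 0.35, FDR 1.22e-06). The groups were apart in both. Fn1, which encodes fibronectin and overlaps Apol7d, was at 337, 476 and 407 CPM and 1649, 1258, 1696 and 1491 CPM (logFC 1.91). Rises were also found for Col4a6 (3.52), Col14a1 (3.32), Nid1 (2.29), Col15a1 (2.22, overlapping a gene on the other strand), Vcan (1.78) and Fbn1 (1.58, overlapping Gm9913). The laminin chain Lama5, of epithelial and endothelial basement membrane, went the other way, at 1139, 928 and 1089 CPM in CONT and 200, 598, 242 and 381 CPM in SVX_VAS (logFC -1.57, SE 0.38, FDR 0.00247). The fibrillar collagens Col1a1 (-0.41, FDR 0.549) and Col3a1 (0.82, FDR 0.184) were not called, though Col3a1 was called higher in the fit of the 7 libraries alone (0.83, FDR 0.000299) and without VAS2 and VAS3 (0.85, FDR 2.78e-06). Col1a1 was at 1112, 1226, 1680 and 2416 CPM in SVX_VAS and 1899 to 2298 CPM in CONT.

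Among proteases and inhibitors 16 of 40 tested members rose and 4 fell, with a median logFC of 0.47. Adamts16 was at 0.591, 0.749 and 1.51 CPM in CONT and 53.1, 93.3, 86.2 and 65.8 CPM in SVX_VAS (81.5-fold, logFC 6.35, SE 0.71, FDR 5.06e-06). The gelatinase Mmp2 (logFC 2.23), the plasminogen activator Plat (1.99) and its inhibitor Serpine2 (2.56) rose. Timp4, an inhibitor whose exons overlap Syn2, was at 0.768, 1.28 and 1.51 CPM and 31.3, 32.2, 29.1 and 26.5 CPM (logFC 4.65, FDR 0.00579). Adam33 fell 7.77-fold, from 46.9, 42.5 and 42.9 CPM to 5.09, 5.07, 5.89 and 6.65 CPM (logFC -2.96, SE 0.28, FDR 1.82e-06). Its SVX_VAS libraries were alike, whereas Mmp7, an epithelial protease, was at 0.384, 47.9, 0.197 and 1.02 CPM against 48.8 to 94.2 CPM in CONT (logFC -2.41, FDR 0.228, or -6.97, FDR 0.00494 without SVX_VAS2 and -5.34, FDR 0.014 by limma-voom, overlapping a gene on the other strand).

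The cell cycle list held 15 of 36 tested members lower and 2 higher, with a median logFC of -0.78. Among the falls were genes of mitosis, with Ccnb1 at 99.7, 42.8 and 46.7 CPM in CONT and 20.01, 12.9, 13.7 and 26.1 CPM in SVX_VAS (logFC -1.79, SE 0.43, FDR 0.00249). CONT1 was the highest library for Ccnb1 and for the kinase Aurka (52.1, 26.0 and 24.0 CPM against 10.1, 6.61, 9.50 and 14.03 CPM, logFC -1.76, FDR 0.00103). Without CONT1, 7 members of the list were lower. Ccnb2 (-1.68), Cdc20 (-1.69, overlapping Elovl1), Bub1 (-1.56) and the ribonucleotide reductase subunit Rrm1 (-1.32) fell in every fit with a library left out. The call of Mki67, a proliferation marker (logFC -1.07, FDR 0.0213), was lost without CONT1 (-0.73, FDR 0.146), SVX_VAS2 (-0.96, FDR 0.0557) or SVX_VAS3 (-0.99, FDR 0.0568). Of the helicase subunits Mcm2, Mcm3, Mcm4, Mcm5, Mcm6 and Mcm7 none was called by edgeR with all libraries. Mcm3 was called lower by DESeq2 (-0.82, FDR 0.0436), limma-voom (-0.84, FDR 0.0453) and without VAS2 and VAS3 (-0.81, FDR 0.0414), Mcm4 by limma-voom (-0.70, FDR 0.0466), and Mcm2, Mcm3, Mcm4, Mcm5 and Mcm6 in a fit of the 7 libraries alone (logFC -0.83 to -0.67, FDR 0.00712 to 0.0416). Without SVX_VAS4 Mcm2 (-0.91, FDR 0.0472), Mcm3 (-0.998, FDR 0.03765), Mcm4 (-0.81, FDR 0.0444) and Mcm5 (-1.04, FDR 0.04997) were called lower, Mcm3 also without CONT4 (-0.98, FDR 0.0496). The members that rose were Ccnd2 (1.80), a cyclin of the G1 phase, and Cdkn1c (2.58), an inhibitor of cyclin-dependent kinases, and the exons of both overlap genes on the other strand.

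Of 25 genes of cholesterol and fatty acid synthesis 18 fell and 1 rose, with a median logFC of -1.61, and 2 rose without SVX_VAS2. Idi1, the isomerase that makes dimethylallyl diphosphate, was at 28.8, 13.7 and 19.6 CPM in CONT and 2.16, 3.36, 1.05 and 3.73 CPM in SVX_VAS (logFC -3.01, SE 0.70, FDR 0.00178). Msmo1, a sterol oxidase, was at 158, 86.2 and 115 CPM and 12.6, 24.5, 9.63 and 30.3 CPM (logFC -2.64, SE 0.65, FDR 0.00288). SVX_VAS4 was the highest of its group in both, and the groups did not overlap. The sterol sensor Insig1 (-2.21) and the transcription factor Srebf2 (-1.32) fell too. The member that rose was Acaca, which commits acetyl groups to fatty acid synthesis (1.13), and the next enzyme, Fasn, was not called (-0.06, FDR 0.841).

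Of 30 genes of glucose uptake, glycolysis and glycogen, 6 rose and 13 fell, with a median logFC of -0.61. The neuronal-type glucose transporter Slc2a3 was at 13.6, 17.1 and 17.7 CPM in CONT and 456, 425, 489 and 454 CPM in SVX_VAS, a 28.3-fold rise (logFC 4.82, SE 0.43, FDR 1.15e-06), whereas Slc2a1 was at 80.1 to 98.3 CPM and 28.5, 101, 24.4 and 33.2 CPM and was not called (logFC -0.89, FDR 0.0897, overlapping a gene on the other strand). Only in SVX_VAS2 was Slc2a1 above CONT, and without that library it was called lower (-1.60, FDR 0.00074), as it was with all libraries by limma-voom (-1.14, FDR 0.0236) and with a replicate block (-0.96, FDR 0.0385). The muscle glycogen phosphorylase Pygm (3.22) and Pfkfb3, which activates glycolysis (2.27), rose. The lactate transporter Slc16a1 fell from 222, 206 and 179 CPM to 39.4, 63.0, 36.8 and 53.4 CPM (logFC -2.07, SE 0.36, FDR 0.000187). Gapdh, Pgk1 and Eno1, with logFC of -0.97, -1.52 and -1.51, have pseudogene copies that can share their reads.

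Endoplasmic reticulum chaperones fell in 11 of 19 members and rose in none, with a median logFC of -0.95. With a library left out in turn, 8 or 9 members fell. Sdf2l1 was at 35.2, 35.9 and 37.4 CPM in CONT and 9.93, 11.2, 9.82 and 16.7 CPM in SVX_VAS (logFC -1.60, SE 0.29, FDR 0.000295). Creld2 (-1.27), Manf (-1.16, with exons that overlap Dcaf1), Pdia4 (-1.002), Hyou1 (-0.97), Dnajb11 (-0.95) and Dnajc3 (-0.91) also fell. Hspa5, the main chaperone of the compartment, had a logFC of -1.15 (FDR 0.0324), and its call was lost in 5 of the 7 fits with a library left out, among them the fit without SVX_VAS2 (logFC -1.18, FDR 0.0513), by limma-voom (FDR 0.0743) and with a replicate block (FDR 0.0532).

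In ion and water transport, 4 of 19 tested members rose, near the 22.1% of all genes tested, and 6 fell, with a median logFC of -0.51. Aqp5, a water channel of the glands, was at 146, 134 and 131 CPM in CONT and 3.74, 6.17, 3.41 and 18.4 CPM in SVX_VAS (17.4-fold lower, logFC -4.12, SE 0.76, FDR 0.000291), with SVX_VAS4 the highest of the 4. With a library left out in turn, the logFC of Aqp5 ranged from -4.94 to -3.87. Aqp8 was at 49.0, 27.4 and 35.1 CPM and 2.30, 2.81, 1.64 and 3.87 CPM (logFC -3.81, SE 0.70, FDR 0.000289). Aqp4 fell as well (-2.84), and Aqp11 (2.37), the sodium pump subunit Atp1b1 (1.72, overlapping Nme7) and the epithelial sodium channel subunit Scnn1a (1.65) rose. Cftr, the chloride channel of secretory epithelium, was at 421, 377 and 427 CPM and 5.23, 141, 4.91 and 54.3 CPM and was not called (logFC -2.99, FDR 0.0747, or -4.26, FDR 0.0297 without SVX_VAS2, overlapping a gene on the other strand), though DESeq2 (FDR 0.0374), limma-voom (FDR 0.0371) and the fit of the 7 libraries alone (FDR 0.0417) called it lower. Without SVX_VAS2, 9 members fell.

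Of 33 tested genes of adhesion at junctions 12 rose and 11 fell, with a median logFC of -0.04, and 7 fell without SVX_VAS1 or SVX_VAS3. Gjb2, a connexin of the epithelium, was at 237, 202 and 237 CPM in CONT and 3.31, 20.3, 2.88 and 31.5 CPM in SVX_VAS (15.6-fold lower, logFC -3.97, SE 1.29, FDR 0.0163). The claudin Cldn7 (-1.81), occludin (Ocln, -0.76) and E-cadherin (Cdh1, -1.46) fell. N-cadherin (Cdh2) was at 0.945, 1.53 and 2.03 CPM and 16.4, 9.75, 14.3 and 9.94 CPM and rose 8.40-fold (logFC 3.07, SE 0.35, FDR 5.21e-06). The endothelial cadherin Cdh5 (2.44), the vessel connexin Gja4 (2.30), Cldn8 (1.92) and Cldn1 (1.71) rose as well.

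Decidual genes, which mark the stromal response that follows attachment, rose in 10 of 19 tested members and fell in 4, with a median logFC of 0.89, and the list shares Hoxa10, Hoxa11, Hand2, Fst and Wnt4, among others, with those above. Klf9, a transcription factor that interacts with the progesterone receptor, was at 20.7, 44.7 and 30.2 CPM in CONT and 110, 89.2, 111 and 97.0 CPM in SVX_VAS (logFC 1.67, SE 0.23, FDR 2.49e-05). Alpl, alkaline phosphatase, was at 595, 551 and 462 CPM and 2.40, 133, 2.62 and 43.6 CPM and was not called by edgeR (logFC -3.56, FDR 0.0604, or -5.06, FDR 0.0246 without SVX_VAS2). With SVX_VAS2 kept it was called lower by DESeq2 (-3.55, FDR 0.0245), limma-voom (-5.32, FDR 0.0293), the fit of the 7 libraries alone (-3.54, FDR 0.0383) and a replicate block (-3.53, FDR 0.0493). The decidual prolactins Prl8a2 and Prl3c1 were below the minimum for testing.

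**Figure D4:**
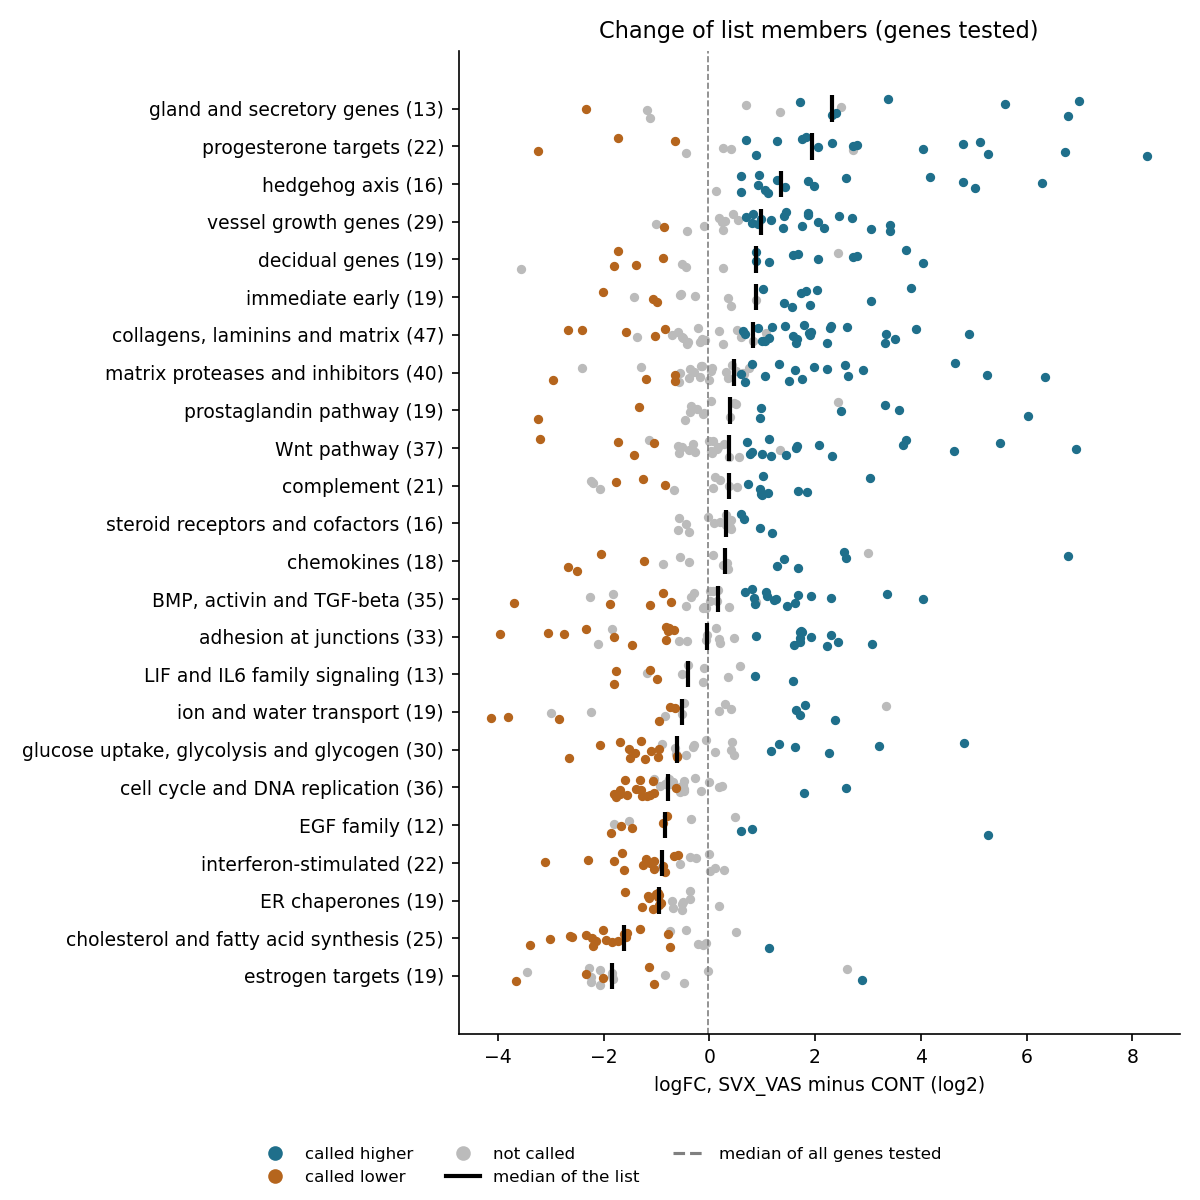
LogFC (SVX_VAS minus CONT, log2) of every tested member of the pathway lists, with the number tested in brackets; points are genes coloured by call, black bars are list medians, and the dashed line is the median of all genes tested, -0.02. The gland, progesterone and hedgehog lists have the highest medians (2.31, 1.95 and 1.36), and the estrogen and cholesterol lists the lowest (-1.84 and -1.61).

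Interferon-stimulated genes fell in 14 of 22 members and rose in none, with a median logFC of -0.89, and without CONT1 9 fell. Oas2, an antiviral synthetase, was at 315, 232 and 315 CPM in CONT and 58.0, 107, 27.5 and 41.4 CPM in SVX_VAS (logFC -2.30, SE 0.46, FDR 0.000629). Mx1, an antiviral GTPase, was at 124, 90.3 and 110 CPM and 9.26, 21.8, 5.76 and 13.3 CPM (logFC -3.11, SE 0.73, FDR 0.00195). SVX_VAS2 was the highest of its group in both, and the groups were apart. Oas1a (-1.81), Ifi44 (-1.62), Oasl2 (-1.19) and the transcription factor Irf1 (-0.88, overlapping Gm17334) fell in every fit with a library left out. Not called were Rsad2 (-0.25, FDR 0.574) and Gbp3 (0.28, FDR 0.328).

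Among chemokines 6 of 18 tested genes rose and 4 fell, with a median logFC of 0.30, where 16.4% of all genes tested were lower. Only 2 fell without any 1 of the libraries other than SVX_VAS2. Cxcl12, a stromal chemokine, was at 17.2, 28.6 and 25.6 CPM in CONT and 140, 142, 166 and 125.3 CPM in SVX_VAS (logFC 2.59, SE 0.27, FDR 3.04e-06). Cxcl15 rose as given above, and Cxcl9 rose from a low level (0.0591 to 0.464 CPM in CONT and 0.877 to 2.25 CPM in SVX_VAS, logFC 2.54, not called by limma-voom, FDR 0.0737). Ccl11, which attracts eosinophils, was at 26.3, 34.8 and 42.8 CPM and 2.93, 4.68, 2.23 and 14.8 CPM (logFC -2.50, SE 0.77, FDR 0.0122), and Cx3cl1 also fell (-1.23). A pair of chemokines, named after their values were seen, was high in SVX_VAS2 only, with Cxcl5 at 1.15, 27.9, 1.25 and 1.02 CPM in SVX_VAS and 0.527 to 1.32 CPM in CONT (logFC 3.01, FDR 0.081, or 0.0207 by DESeq2 and 0.031 without VAS2 and VAS3) and Cxcl2, below the minimum for testing, at 11.6 CPM in SVX_VAS2 and at most 0.25 CPM in the other 6 libraries.

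Complement genes were split, with 9 of 21 tested members higher, 3 lower and a median logFC of 0.37. Subunits of C1, the first component of the classical pathway, rose, with C1s1 at 60.3, 96.3 and 80.2 CPM in CONT and 270, 251, 267 and 229 CPM in SVX_VAS (logFC 1.69, SE 0.24, FDR 3.48e-05, overlapping Gm16567) and C1qa, C1qb and C1qc at logFC of 0.99, 0.98 and 1.10. The next components were not called, with C4b at a logFC of 0.07 (FDR 0.871) and C2 at -0.68 (FDR 0.0525), the latter called lower without SVX_VAS2 (-0.95, FDR 0.00719) and, with SVX_VAS2 kept, by DESeq2 (-0.66, FDR 0.0448), limma-voom (-0.74, FDR 0.0206), both other filters on low counts (FDR 0.0357 and 0.0433), a replicate block (FDR 0.0449) and without VAS2 and VAS3 (FDR 0.0427). Clusterin (Clu), which blocks the terminal complement complex, fell (-1.25). Without SVX_VAS2, 7 members fell, C3 among them.

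Immediate early genes, which respond within minutes to stimuli and to tissue handling, rose in 9 of 19 tested members and fell in 3, with a median logFC of 0.88, and 5 fell without SVX_VAS2. Nr4a3 was at 1.004, 1.68 and 1.81 CPM in CONT and 29.7, 6.56, 20.4 and 27.8 CPM in SVX_VAS (logFC 3.81, SE 0.56, FDR 4.55e-05). Fosb (logFC 3.05), Nr4a1 (2.04), Egr1 (1.90) and Myc (1.83) rose, and Fosl2 (-1.06), Klf4 and Fos fell. Fos was at 77.7, 62.2 and 74.2 CPM and 27.7, 55.3, 29.9 and 31.4 CPM (logFC -0.98, FDR 0.0299), and its call was lost without CONT1, CONT4, SVX_VAS1, SVX_VAS3 or SVX_VAS4 (logFC -0.92, FDR 0.0838 without CONT1) and with upper quartile scaling (-0.84, FDR 0.0558). Egr1 was at 11.3, 16.1 and 17.8 CPM and 55.7, 34.0, 66.3 and 68.2 CPM, with SVX_VAS2 the lowest of its group as for Nr4a3.

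Markers of epithelium were lower in SVX_VAS, with 10 of 12 tested genes lower, none higher and a median logFC of -1.66. Their summed level was 7058, 5335 and 6391 CPM in CONT and 1257, 2795, 1286 and 1911 CPM in SVX_VAS, so that the groups did not overlap and SVX_VAS2 was the highest of the 4. Krt7, a keratin of simple epithelium, was at 949, 677 and 831 CPM and 32.0, 93.0, 30.7 and 152 CPM (logFC -3.41, SE 0.90, FDR 0.00455). The epithelial transcription factor Elf3 (-2.86, overlapping Gm26642), Krt19 (-2.42), Krt8 (-1.88), Epcam (-1.80) and the splicing factor Esrp1 (-1.51, overlapping Gm26663) fell too. The claudins Cldn3 (0.18, FDR 0.624) and Cldn4 (0.46, FDR 0.269) were not called. Cdh1 and Cldn7 are themselves members of this list, so that their falls are part of its lower level. The falls of Gjb2 and Muc1, which are not members, went along with the lower level of epithelial markers, and its part in them was not tested.

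Stromal and endothelial markers were higher. Of 12 stromal markers 8 rose and none fell, with a median logFC of 1.21, including Pdgfra, a growth factor receptor of fibroblasts, at 169, 345 and 209 CPM in CONT and 720, 680, 746 and 578 CPM in SVX_VAS (logFC 1.498, SE 0.29, FDR 0.000475, overlapping Gm42802). Hoxd10 (2.71), Thy1 (1.70) and Vim (1.52) rose, and Dcn, which encodes decorin, did not pass the test (-0.17, FDR 0.752). The rises of matrix, hedgehog and homeobox genes above went along with this list, which shares Hoxa11, Hand2 and collagens with those lists, and its part in them was not tested. Of 12 endothelial markers 10 rose and none fell, with a median logFC of 1.78, and their summed level was 252.4, 349.2 and 301.1 CPM in CONT and 1303, 948.7, 1226 and 1064 CPM in SVX_VAS. Emcn, an endothelial sialoglycoprotein, was at 8.68, 12.6 and 10.4 CPM and 80.1, 54.1, 68.5 and 56.6 CPM (logFC 2.62, SE 0.22, FDR 7.31e-07). The members not called were the lymphatic markers Lyve1 (-0.03) and Prox1 (0.33). The rises of vessel genes above went along with this list, and its part in them was not tested. Among others, it shares Tek with the vessel growth list and Cdh5 with the junction list, so that these lists are not independent. Of 10 smooth muscle markers, which would come from myometrium or vessel walls, 2 rose (Des, 1.01, overlapping Gm15179, and Synpo2, 1.77), none fell, and Myh11 was at 59.6, 71.6 and 219 CPM in CONT and 165, 240, 243 and 140 CPM in SVX_VAS (logFC 0.76, FDR 0.282, or 1.59, FDR 0.0435 without CONT4).

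Immune cell markers did not all change in the same direction and are given by list. Of 10 tested macrophage markers 7 rose and 1 fell, with a median logFC of 0.90, and the fall, that of Cd68 (logFC -1.08, FDR 0.0367), was lost without any 1 of the libraries other than SVX_VAS2 (logFC -0.89, FDR 0.102 without SVX_VAS1), in the fit of the 7 libraries alone (FDR 0.0867) and with upper quartile scaling (FDR 0.0629). SVX_VAS2, at 43.9 CPM, lay in the range of CONT for Cd68. Lyz2 was at 31.5, 69.1 and 47.9 CPM in CONT and 171, 135, 166 and 149 CPM in SVX_VAS (logFC 1.64, SE 0.32, FDR 0.000453). Of 13 antigen presentation genes 9 rose and none fell, with a median logFC of 1.16, among them the MHC class II chains H2-Ab1 (1.44) and H2-Aa (1.38). The class I genes H2-K1 (-0.63, FDR 0.189) and H2-D1 (-0.79, FDR 0.119), which share reads with their paralogs, were not called with all libraries. Both were called lower in the fit of the 7 libraries alone (FDR 0.00209 and 0.00422) and without VAS2 and VAS3 (FDR 0.0106 and 0.00442).

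Of 15 tested T and NK cell markers 12 rose and none fell, with a median logFC of 1.49. Gzmb, a granzyme that uterine NK cells carry, was at 3.01, 9.88 and 5.80 CPM in CONT and 39.3, 25.9, 37.2 and 27.4 CPM in SVX_VAS (logFC 2.37, SE 0.39, FDR 0.000109). The NK receptor Ncr1 (1.79), perforin (Prf1, 1.91) and Cd3g (2.88) rose from low levels. Among B and plasma cell markers 4 of 6 rose and 1 fell, but without CONT1 none was called higher, and without SVX_VAS2 2 were called lower. The gene that fell was Cd79b (-2.87). Of 4 tested neutrophil markers, Csf3r rose (1.60, not called by limma-voom, FDR 0.0816) and Ly6g fell, from 11.2, 6.99 and 9.27 CPM to 0.384, 0.716, 0.262 and 0.95 CPM (logFC -3.98, SE 0.84, FDR 0.000892), and without SVX_VAS2 Ltf was called lower as well. Ltf is also one of the estrogen targets above and, at 1863 to 2830 CPM in CONT and 2286 CPM in SVX_VAS2, held most of the summed level of the neutrophil list, which is therefore not read as a level of neutrophils. The defining neutrophil genes S100a8 and S100a9 were below the minimum, at 2.35 CPM or less in all 7 libraries.

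Of 12 markers of eosinophils and basophils 3 could be tested, and 2 of them were lower. Il5ra was at 18.2, 20.7 and 20.1 CPM in CONT and 0.48, 1.21, 0.262 and 1.24 CPM in SVX_VAS (logFC -4.62, SE 0.67, FDR 3.84e-05), and Cd200r3 was at 24.3, 28.8 and 17.2 CPM and 0.144, 1.93, 0.0655 and 0.658 CPM (logFC -5.05, SE 1.07, FDR 0.00092). The granule genes Prg2 and Epx, which define eosinophils, and Mcpt8, which defines basophils, were below the minimum and at 0.937 CPM or less in every library. Of 5 red blood cell genes 4 rose, but only 1 did so without CONT1 or CONT4, and 2 without SVX_VAS1, SVX_VAS3 or SVX_VAS4. Of 6 tested genes of motile cilia and oviduct, Dnah5 (5.69, not called by limma-voom, FDR 0.0765), Ovgp1 (2.60) and Tekt2 (1.44, overlapping Gm12945) rose and the axonemal dynein Dnah12 fell (-4.76), and without SVX_VAS4 2 fell. No mesothelium or fat marker was called with all libraries, with 3 tested. The mesothelial marker Msln was at 8.86, 9.81 and 8.44 CPM in CONT and 6.77, 4.90, 5.76 and 4.68 CPM in SVX_VAS, without overlap (logFC -0.71, FDR 0.115), and was called lower in the fit of the 7 libraries alone (-0.70, FDR 0.00406) and without VAS2 and VAS3 (-0.68, FDR 0.00276).

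**Figure D5:**
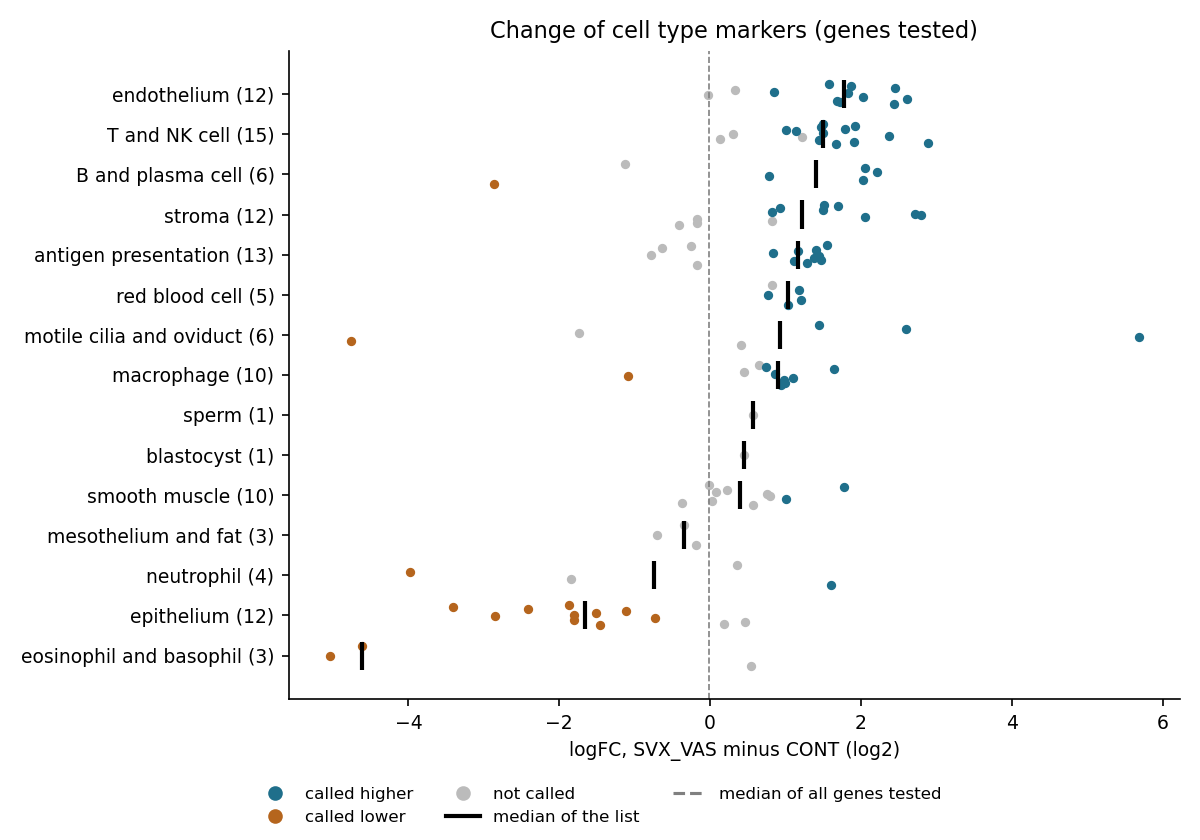
LogFC (SVX_VAS minus CONT, log2) of every tested cell type marker, with the number tested in brackets; points are genes coloured by call, black bars are list medians, and the dashed line is the median of all genes tested, -0.02. Of the 5 lists with 12 or more tested genes, the medians are 1.78 for endothelium, 1.49 for T and NK cells, 1.21 for stroma and 1.16 for antigen presentation, against -1.66 for epithelium.

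The largest rises among called genes whose libraries did not overlap were those of genes nearly absent at estrus. Cyp3a25, a cytochrome P450, had 0 counts in all 3 CONT libraries and 4.37, 3.31, 2.88 and 2.78 CPM in SVX_VAS, at least 19.6-fold higher when CONT is set to the limit of 3 counts per library. By the same limit, Gm42692 was at least 17.0-fold, the palmitoyltransferase Zdhhc19 at least 10.8-fold and the neurokinin gene Tac2 at least 7.0-fold higher. Adarb2, an RNA-binding protein of the adenosine deaminase family, had 3 counts in CONT and 24.1, 26.4, 30.3 and 23.7 CPM in SVX_VAS, a ratio of pooled counts of 505 with a counting interval of 173 to 2450. The pooled ratios of Gm765, Cyp3a59, Epha8 and St6gal2 were 457 (156 to 2220), 325 (111 to 1580), 243 (43.3 to 9650) and 205 (69.9 to 997). Adarb2 and St6gal2 were not called by limma-voom (FDR 0.125 and 0.107). Gm765 overlaps Gm32592, which rose with it (logFC 8.57), and Cyp3a25 and Cyp3a59 are close paralogs that can share reads. Fam83a, a signaling scaffold, was at 0.177, 0.178 and 0 CPM and 19.1, 19.5, 21.6 and 19 CPM (logFC 7.15).

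The largest falls left low levels in SVX_VAS, most often lowest in SVX_VAS1 and SVX_VAS3. Syt16, a synaptotagmin that overlaps Gm29587, was at 16.4, 13.98 and 11.7 CPM in CONT and 0.096, 0.881, 0.131 and 0.292 CPM in SVX_VAS (logFC -5.28, SE 1.13, FDR 0.000982). Apobec2, a member of the cytidine deaminase family, was at 163, 165 and 147 CPM and 1.30, 17.2, 0.786 and 5.55 CPM (logFC -4.66). The hair-type keratin Krt87 was at 100.1, 75.5 and 87.1 CPM and 0.816, 2.15, 0.393 and 9.43 CPM (logFC -4.80). In these 3 genes SVX_VAS2 or SVX_VAS4 was the highest of its group and still far below CONT. Another keratin, Krt84, had a logFC of -5.10 (FDR 0.0208), lost without SVX_VAS1 (-4.66, FDR 0.0501) or SVX_VAS3 (-4.68, FDR 0.0522), by DESeq2 (FDR 0.086) and with a replicate block (FDR 0.0609), and the protease inhibitor Spink12 had -5.23 (FDR 0.0209), lost without SVX_VAS1 (-4.80, FDR 0.0524) or SVX_VAS3 (-4.82, FDR 0.0521). The remaining genes of this set were Gm2109, Cd200r3, Gm43345, Dnah12, Gm1965 and the steroid 21-hydroxylase gene Cyp21a1 with Tnxa, which overlap each other and have near-identical copies (logFC -4.88 and -4.66).

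Among the called genes with the most counts in SVX_VAS, Lrp2, Zbtb20, Flna, Fn1, Col4a1, Mme, Lrp1 and Fbn1 rose. Mme, a membrane metalloprotease of the endometrial stroma, was at 42.7, 82.6 and 71.2 CPM in CONT and 1222, 995, 1130 and 925 CPM in SVX_VAS, a 16.3-fold rise (logFC 4.03, SE 0.46, FDR 5.51e-06). Zbtb20, a transcriptional repressor that overlaps Gm9968, rose 3.33-fold (logFC 1.74, SE 0.28, FDR 0.000109). The rises of Flna (logFC 1.05) and Col4a1 (0.995) were smaller, and both were lost without CONT1 (0.97, FDR 0.0596, and 0.96, FDR 0.0652), that of Col4a1 also without CONT4 (0.96, FDR 0.0609). The rise of Lrp1 (0.70) was lost without CONT1 (0.55, FDR 0.0895) or CONT4 (0.66, FDR 0.0557). Rnf213, a ubiquitin ligase induced by interferon that overlaps A930037H05Rik, fell from 2351, 1782 and 2293 CPM to 1195, 1366, 839 and 953 CPM (logFC -0.98, SE 0.26, FDR 0.00447). The long noncoding RNA Neat1 was at 2801, 3115 and 2958 CPM and 1097, 2871, 1063 and 1309 CPM, so that SVX_VAS2 lay in the range of CONT, and its call (logFC -0.90, FDR 0.0296) was lost in 6 of the 7 fits with a library left out and in the fit of the 7 libraries alone (FDR 0.0559).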

How the data were processed

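Endometrial RNA was sequenced as stranded total RNA with paired ends (TruSeq) in 19 libraries of pooled samples. The authors removed adapters (AdapterRemoval), aligned reads to GRCm38/mm10 (STAR) and counted them per gene (featureCounts); versions and the strand setting are not given in the sources used here. The deposited values are raw counts for 49089 genes, of which 37 are mitochondrial and hold 0 counts. From these, edgeR 4.0.16 (R 4.3.3) fitted its quasi-likelihood model with TMM factors to all 19 libraries in 5 groups, over genes that reached 3 CPM in 3 or more libraries. Calls required a fold of at least 1.5 and an FDR (Benjamini-Hochberg) no higher than 0.05. log2 CPM used a prior count of 2. SE is the absolute logFC over the square root of F. limma 3.58.1 and DESeq2 1.42.0 gave alternatives, and Python 3.11.15 with matplotlib 3.10.9 drew the plots. Steps across genes were tested on simulated data.

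The libraries were taken by column prefix, without use of measured values, but the choice of this group and of the gene lists was made with earlier results of these data known. Genes were named by rule: the 12 largest rises and falls among called genes without overlap, the 10 called genes with the most counts in SVX_VAS, the 10 with the largest SD among SVX_VAS, and list members by size, level or role. No gene met a further rule, a call in 1 direction against every other mated group. Count intervals are 95% and, like the limit of 3 counts for a count of 0, cover counting error only. That limit was 0.107 to 0.226 CPM in CONT and 0.144 to 0.219 CPM in SVX_VAS. Replicate numbers did not pair the libraries. Results for some list members are not reported here.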

Additional observations from a re-analysis of the deposited data

Results flagged for a closer look

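Among 86 values of the 4 SVX_VAS libraries, 9 had 1 library farther from the rest than Dixon's 95% critical value allows, and 7 of the 9 were in SVX_VAS2. Chance sets about 1 in 20 unselected groups apart, but these values include genes picked for their spread among the SVX_VAS libraries and sums of lists that share members, so that the number found is not set against chance. SVX_VAS2 had a PC2 score of -54.1 where the others had 15.9, 15.4 and 9.87. Its summed level on a scale of log2 (summed CPM + 0.5) was 10.35 for the prostaglandin pathway (others 9.807, 9.734 and 9.838), 9.33 for chemokines (8.447, 8.571 and 8.562), 12.69 for complement (10.42, 10.31 and 10.65), 12.03 for ion and water transport (10.7, 10.73 and 10.89) and 12.44 for adhesion at junctions (11.63, 11.56 and 11.7). In each of these 5 lists SVX_VAS2 was the highest of its group. Gm42692, one of the largest rises, had the lowest level in SVX_VAS2, at a log2 CPM of 0.153 against 1.913, 1.791 and 1.888. In SVX_VAS4, the cholesterol and fatty acid list stood apart at 11.53 against 11.16, 11.16 and 11.21, and Gm2109 was at a log2 CPM of -0.5045 against -3.056 in the other 3. The other 3 libraries hold 0 counts of Gm2109, so that any count in the fourth would have set it apart, and nothing is read from that value.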

How the results depend on the processing

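Pools of unstated size, 3 libraries against 4, SVX_VAS2 and an unstated strand setting limit these results. With a library left out in turn, calls ranged from 5763 to 6854 (higher 3348 to 3832, lower 2415 to 3022), called list genes from 323 to 404, and the PC1 difference from 150.4 to 169, while calls against INT, SVX and VAS ranged from 0 to 0. A test against the 1.5-fold bound itself (glmTreat) called 4214 genes, of which 1476 were lower. DESeq2 called 2 genes against INT and 27 against VAS, and limma-voom called 1804 against VAS; the cause was not tested. Without SVX_VAS2, Slc26a9 (logFC -4.59, FDR 0.0461) and Chil1 (-5.42, FDR 0.045) were called lower. With all libraries neither was called and both logFC were positive (0.30, FDR 0.906, and 1.67, FDR 0.528). Over the other libraries left out they ranged up to 0.71 and 2.42. Upper quartile scaling moved the median logFC of all genes by 0.147, to 0.127, and gave 4400 higher and 2166 lower genes, so that 67.0% of calls were higher against 57.5%. Slc26a9 and Chil1 were also lower with limma-voom (logFC -3.55 and -3.12) and with a replicate block (-1.60 and -0.36), not called there. The other settings kept the call counts within 1.5 times. Without VAS2 and VAS3, an alternative chosen after seeing the data, 7392 genes were called. Libraries with the same number did not deviate together (r = -0.091, -0.018 and -0.168 for numbers 1, 2 and 4), and the fit with a replicate block called 6399 genes.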

Other observations

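Protein-coding genes made up most calls, with 3129 higher and 2493 lower of 13731 tested (40.9%). Of 402 lincRNA genes, 84 were higher and 54 lower (34.3%). Antisense genes were called less often (89 higher and 51 lower of 978, 14.3%), a difference that was not tested, and many of them share exon positions with a gene on the other strand. Of 65 snoRNA genes 2 were lower and none was higher.

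Markers of sperm and of the blastocyst were at low levels. The summed level of 8 sperm markers was 6.32, 7.46 and 7.53 CPM in CONT and 10.1, 10.8, 11.7 and 10.6 CPM in SVX_VAS, so that the groups did not overlap. Only Gapdhs, whose exons overlap Tmem147os, could be tested among them, and it was not called (logFC 0.57, FDR 0.679) except without VAS2 and VAS3, an alternative chosen after seeing the data (0.60, FDR 0.00176). Of 10 blastocyst markers only Gata6 could be tested (0.45, FDR 0.366).

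Of the 27 genes that DESeq2 called against VAS, a few are named here after their values were seen. Cadps, which primes secretory vesicles, was at 6.1, 3.48, 6.17 and 2.24 CPM in VAS1, VAS2, VAS3 and VAS4 and 0.576, 0.826, 0.983 and 1.02 CPM in SVX_VAS (DESeq2 logFC -2.41, FDR 0.0011). Mmp9, a gelatinase gene, was at 4.7, 7.74, 17 and 2.88 CPM in VAS and 1.63, 2.2, 2.29 and 2.05 CPM in SVX_VAS (-1.97, FDR 0.014). The clock gene Per3 was at 51.4, 96.2, 74.9 and 91.9 CPM and 43.5, 52.1, 46.8 and 34.5 CPM (-0.81, FDR 0.0161). VAS2 and VAS3, the libraries with the lowest share of counts in their largest genes, held the 2 highest levels of Mmp9, and the part of these libraries in the 27 calls was not tested.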
